A study of Macaca mulatta with 17 samples.

Results

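The nuclear genes of oxidative phosphorylation were examined in the fetal uterus of the rhesus macaque. Members were the genes whose probe description gave a symbol beginning with NDUFA, NDUFB, NDUFC, NDUFS, NDUFV, UQCR, ATP5, COX4 to COX8 or SDHA to SDHD, either in parentheses or as the human gene that the transcript resembles. This gave 66 genes on 70 probes, out of 20217 probes and 16464 named genes on the array. For the 4 genes with 2 probes, ATP5D, ATP5E, COX7C and NDUFS6, the probe with the higher mean signal was used. Of the 66 members, 62 are subunits, with 29 in complex I, 3 in complex II, 5 in complex III, 12 in complex IV and 13 in complex V. The prefixes also took in 4 genes that are not subunits. These are NDUFAF1, an assembly factor of complex I, COX7A2L, a factor of respiratory supercomplexes, COX4NB, the neighbor of COX4I1 that was later named EMC8, and ATP5S, coupling factor B. COX4I1, COX6A1, COX6B1, COX7A2, NDUFA4L2, ATP5G1 and SDHC had no probe that met the rule and were not analysed here.

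RNA came from 17 female fetuses in 4 groups. Dams of the BPA groups ate fruit treated with deuterated bisphenol A at 400 µg per kg per day, and dams of the control groups received the ethanol vehicle. Exposure ran from gestational day (GD) 50 to delivery by cesarean section at GD100 in the early groups (5 control and 5 BPA fetuses), and from GD100 to vaginal delivery near GD165 in the late groups (4 control and 3 BPA fetuses), from which stillborn fetuses were left out. By the paper's protocol, euthanasia followed at once for fetuses, but for newborns it could come up to a day later. The paper does not state how long each animal of the late groups lived after birth. These animals are called fetuses here, as in the paper. Age, mode of delivery and any time alive after birth cannot be told apart in any comparison of ages. RNA was extracted from a lengthwise piece of the whole organ, so that myometrium, stroma and epithelium were measured together, and fewer cells of a type cannot be told apart from less RNA per cell. Of 6 uterine marker genes, ESR1, HOXA10, HOXA11, WNT7A and PAX8 were well above background on all 17 arrays, and PGR, the progesterone receptor, on 3. The spots that cleared background made up 83.8% to 89.0% of an array, and the median signal was 17.5 to 24.2 times the background. The number of arrays limits the precision.

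Complexes I to IV of the inner mitochondrial membrane pass electrons from NADH and succinate to oxygen and, except for complex II, pump protons, and complex V uses the proton gradient to make ATP. A few subunits of complex IV exist as isoforms with tissue preference. COX6A2 and COX7A1 belong to heart and skeletal muscle, COX4I2 to lung and vascular cells, and COX6B2, COX7B2 and COX8C to testis. Uterine smooth muscle draws on mitochondrial ATP, along with glycolysis, when it contracts.

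Each probe is a DNA strand of 60 bases. The last 30 bases are given here for the members that the results turn on and for a gene with overlapping probes, 5′ to 3′, with the polyadenylation signal AATAAA in capitals where it falls in this stretch.
COX7C, brighter probe: aacattccagtattactctgagatttagct
COX7C, dimmer probe: actagatatgtttgtcAATAAActtatgac
COX7A1: tgaacaagtgtcAATAAAcgctggcctctg
NDUFA10: ggatctggctgaagtgaacgggccgccttc
UQCRB: cttaagtaatacatatactcctgtgctaac
SDHB: gaatacagcatgtatAATAAAaattttaag
ATP5E, brighter probe: aaattgaagtatggttcactgttactcttg
ATP5E, dimmer probe: aattgaagtatggttcactgttactcttga

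AATAAA stood somewhere in 24 of the 66 probes used (36.4%) and in 2580 of all 20217 probes (12.8%). Its reverse complement TTTATT stood in 3 of the 66 (4.55%) and in 4.67% of all probes. The brighter COX7C probe was 1 of these 3 and held no AATAAA, and it was named through the human gene that its transcript resembles. The dimmer COX7C probe held AATAAA and was named by a symbol in parentheses. The ATP5E probes shared 59 bases, and their levels correlated with a Pearson r of 0.92 over the 17 arrays. The probes of the other genes shared 0 bases. The r was 0.91 for NDUFS6, 0.38 for ATP5D and -0.27 for COX7C. These correlations describe the same 17 arrays, with no test.

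Levels are log2 signals scaled to a common 75th percentile, and a level was compared between arrays and not between genes. Of the 66 members, 60 were well above background on every array and none (0) was saturated on any. The other 6 were dim. ATP5G3, an isoform gene of the complex V c subunit, and NDUFS1, the largest core subunit of complex I, were well above background on 1 array each, ATP5S on 5, COX7B2 on 8, COX8C on 12 and NDUFA4 on 14. No fold is given for ATP5G3 and NDUFS1.

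**Figure D1:**
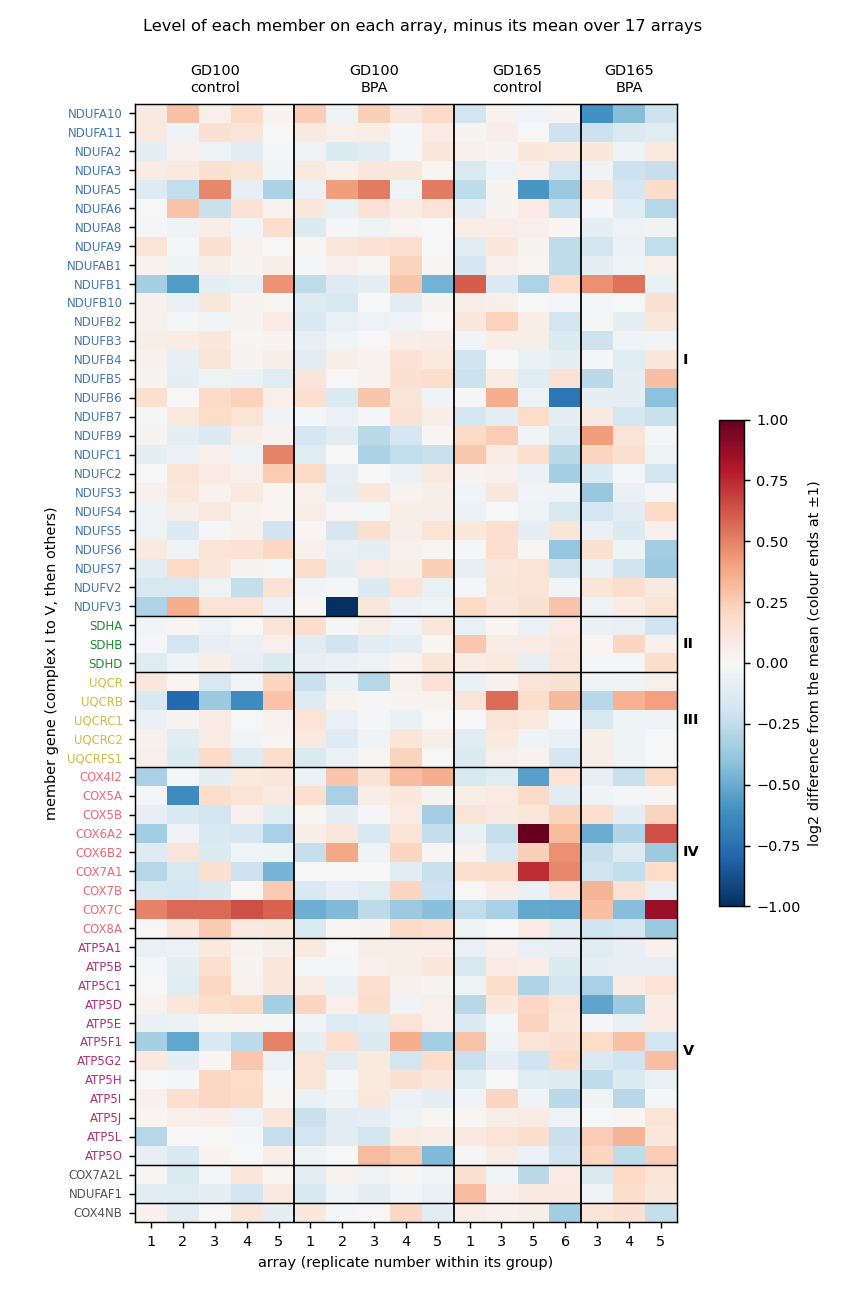
Level of 59 of the 60 members detected above background on all 17 arrays, minus the gene's mean over the 17 arrays, in log2 units, with arrays in columns by group (replicate number below) and genes in rows by complex. Most rows are pale, and COX7C is the row in which the 5 GD100 controls stand together above the GD100 BPA and GD165 control arrays.

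The members varied little between animals of a group. The SD within groups had a median of 0.13 log2 units over the 66 members and of 0.25 over all probes. Bright probes vary less, so the members were also set beside probes of similar signal. Among probes with a mean level between 12 and 16 the median SD was 0.10 for the 37 members there and 0.15 for the 5622 probes. The smallest SD among the members, 0.06, was that of NDUFA8, an accessory subunit of complex I, whose levels ran from 14.66 to 14.97 over all 17 arrays. ATP5A1, the alpha subunit of ATP synthase, also had an SD of 0.06 and ran from 17.08 to 17.31. COX8C had the largest, 1.87. These values are descriptions without a test.

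**Figure D2:**
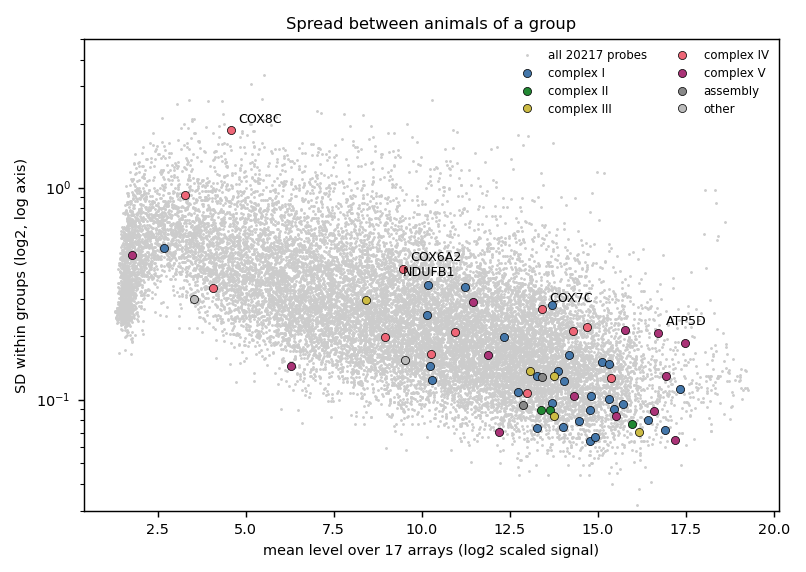
SD within groups (log2 units, log axis) against the mean level over 17 arrays for all 20217 probes (grey) and the 66 members (colored by complex). Most members lie in the lower part of the cloud at their level, and COX8C, COX6A2, NDUFB1, COX7C and ATP5D are labeled.

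Averaged over the 60 members well above background on every array, the levels hardly moved. The mean over the 60 members of each gene's deviation from its own mean ran from -0.04 to 0.05 on GD100 control arrays, from -0.05 to 0.05 on GD100 BPA arrays, from -0.05 to 0.06 on GD165 control arrays and from -0.05 to 0.02 on GD165 BPA arrays. The groups overlapped. For complex II the same mean was -0.07 to 0.01 in GD100 controls and -0.02 to 0.10 in GD165 controls. For complex III it was -0.19 to 0.14 and -0.04 to 0.18, and for complex IV -0.09 to 0.07 and -0.05 to 0.16. Members were also compared with each other within groups, without other probes beside them. Over the 1770 pairs of the 60 members, the correlation of deviations from the group means had a median of 0.10, and 61.2% of pairs were above 0. Complex III (10 pairs, median 0.23) and complex V (66 pairs, median 0.22) had the higher medians, and complex I (378 pairs) had 0.11. The closest pairs were ATP5F1 with NDUFB1 (r = 0.86), NDUFA3 with NDUFB7 (0.82), NDUFA10 with NDUFS3 (0.81), ATP5F1 with COX7B (0.81) and the muscle isoforms COX6A2 with COX7A1 (0.80), over 17 arrays that share their slides. The most opposed pairs were ATP5D with NDUFB1 (r = -0.75) and COX7A1 with NDUFB9 (-0.72). On slide 5 the mean deviation from the group means was 0.37 for NDUFB1 and 0.27 for ATP5F1.

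A few members stood apart on 1 slide. On slide 5, which held 1 GD100 control, 1 GD165 control and 2 GD165 BPA arrays, NDUFB1, a small accessory subunit of complex I, lay between 10.63 and 10.78, and on the other 13 arrays between 9.62 and 10.45. ATP5D, the delta subunit of ATP synthase, lay on its brighter probe between 16.20 and 16.45 on slide 5 and between 16.69 and 16.94 elsewhere. These were the 2 members (3.03% of 66) whose slide 5 arrays did not overlap the rest, against 1.32% of all probes, and they were named after their values were seen. The GD165 minus GD100 difference of the brighter ATP5D probe in BPA-exposed fetuses was -0.36 log2 units without a slide term and -0.07 with slide as a fixed block. The dimmer ATP5D probe did not show this shift. Its levels of 12.64 to 13.03 on slide 5 overlapped those elsewhere (12.74 to 13.21), and its difference without a slide term was -0.06.

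The effect of age was measured first, as GD165 controls against GD100 controls. COX7C fell and COX7A1 rose, and no other member passed the threshold, an adjusted p of 0.01 in limma over all probes. These are 2 of 66 members. Of all probes, 11.5% were called, 6.32% higher and 5.20% lower at GD165. An adjusted p under 0.05 was reached by 3 members, the third being UQCRB, and by 21.2% of all probes, and an unadjusted p under 0.05 by 9 members and 33.1% of all probes. The median difference was -0.03 log2 units over the members and 0.00 over all probes, and 28 members were higher and 38 lower.

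The size of what was not called could be bounded. The 95% interval of the age difference lay within a 1.5-fold change in either direction for 52 of the 66 members (78.8%), and within a 2-fold change for 60. The same bound of 1.5-fold held for 47.3% of all probes, and for 52.8% of those well above background on every array, against 85.0% of the 60 members of that kind. In BPA-exposed fetuses the interval lay within 1.5-fold for 50 members (75.8%) and for 41.1% of all probes. The median level was 13.82 for the 60 members and 10.77 for the probes well above background on every array. Bright probes vary less, and these shares, like those for BPA below, were not matched for signal. They do not show that the members were steadier than probes of similar signal.

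**Figure D3:**
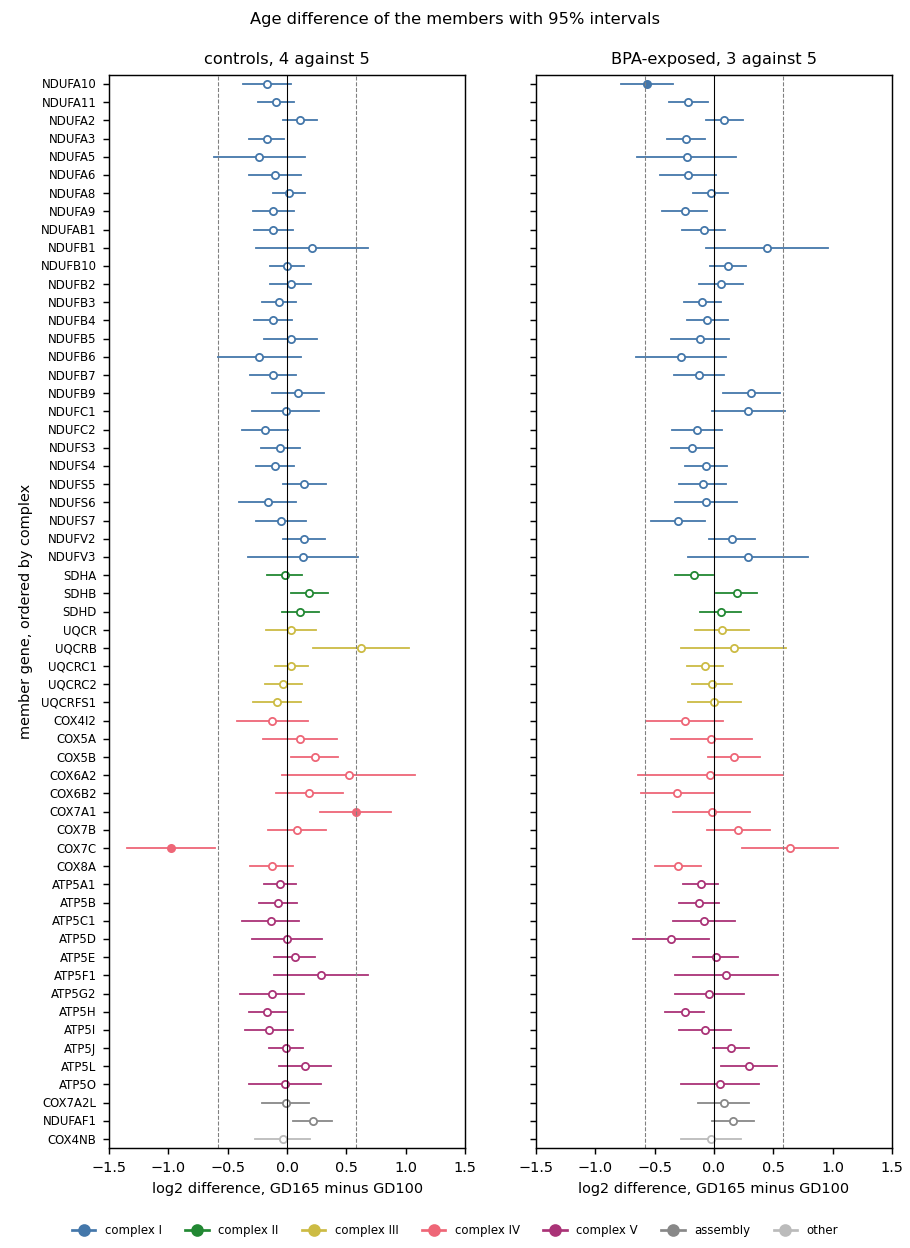
GD165 minus GD100 difference in log2 units for 59 of the 60 members well above background on every array, in controls (left, 4 against 5 arrays) and in BPA-exposed fetuses (right, 3 against 5 arrays). Points are estimates and bars 95% intervals from limma, filled points have an adjusted p below 0.01, dashed lines mark a 1.5-fold change, and color gives the complex. The filled points are COX7C and COX7A1 on the left and NDUFA10 on the right.

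Complex I, the NADH dehydrogenase, had no called member (0 of 29) in controls, with 10 higher and 19 lower and a median of -0.09. The core subunits NDUFS1, NDUFS3, NDUFS7 and NDUFV2 were among those not called. The accessory subunit NDUFA3 had the smallest p of the complex. Its levels were 14.54, 14.56, 14.62, 14.61 and 14.44 in GD100 controls and 14.32, 14.42, 14.51 and 14.28 in GD165 controls. The groups overlapped in a narrow range, with a difference of -0.17 ± 0.07 (SE; adjusted p = 0.0976). NDUFAF1, which helps to build complex I, had a difference of 0.22 and an adjusted p of 0.0568.

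Complex II, succinate dehydrogenase, which also serves the citric acid cycle, was measured by SDHA, SDHB and SDHD. SDHB, the iron-sulfur subunit, had levels of 13.65, 13.47, 13.58, 13.59 and 13.70 in GD100 controls and of 13.92, 13.73, 13.73 and 13.76 in GD165 controls. Every GD165 control lay above every GD100 control. The difference was 0.19 ± 0.07 (SE; adjusted p = 0.0863), which did not pass, and groups that do not overlap were found for 19.4% of all probes and 4 of the 66 members (COX5B, COX7A1, COX7C and SDHB). The flavoprotein SDHA had a difference of -0.02 and the membrane anchor SDHD one of 0.11, with adjusted p of 0.876 and 0.326.

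In complex III, the cytochrome bc1 complex, UQCRB, which binds ubiquinone, had the largest difference. Its levels were 8.26, 7.63, 8.03, 7.78 and 8.69 in GD100 controls and 8.52, 8.97, 8.58 and 8.73 in GD165 controls. GD100 control 5, at 8.69, lay inside the GD165 range, and the other 4 GD100 controls lay below it. The difference was 0.62 ± 0.19 (adjusted p = 0.0300). Without GD100 control 5 it was 0.78 with an adjusted p of 0.00450, which passes, the 1 of 21 alternatives in which it did, with adjusted p up to 0.177. Within slides it was 0.93 on slide 3 and -0.17 on slide 5. In BPA-exposed fetuses the difference was 0.17 ± 0.21 (adjusted p = 0.619). The core proteins UQCRC1 and UQCRC2, the Rieske protein UQCRFS1 and UQCR differed by 0.04, -0.03, -0.08 and 0.03.

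Complex V, ATP synthase, had no called member (0 of 13), with 4 higher and 9 lower. ATP5H, the d subunit of the stalk, had the smallest p, with levels of 15.51, 15.50, 15.71, 15.69 and 15.50 in GD100 controls and 15.39, 15.50, 15.39 and 15.38 in GD165 controls. The difference was -0.17 ± 0.07 (adjusted p = 0.120), and 1 GD165 control reached the GD100 range. The catalytic pair ATP5A1 and ATP5B differed by -0.06 and -0.08.

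Complex IV, cytochrome c oxidase, held both called members. COX7C is a small ubiquitous subunit. On its brighter probe the levels were 13.91, 13.98, 13.98, 14.06 and 14.003 in GD100 controls and 13.17, 13.09, 12.90 and 12.89 in GD165 controls. GD100 BPA fetuses had 12.92, 12.97, 13.15, 13.05 and 12.99, and GD165 BPA fetuses had 13.71, 12.99 and 14.27. The GD100 controls thus lay within a range of 0.15 around 13.99 ± 0.05 (SD, n = 5), and the GD100 BPA group (13.02 ± 0.09, n = 5) and the GD165 controls (13.01 ± 0.14, n = 4) lay about a log2 unit below without overlap. The GD165 BPA group spread over both ranges (13.66 ± 0.64, n = 3).

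The fall of COX7C with age in controls was -0.98 ± 0.17 log2 units (SE; adjusted p = 0.00108), a 1.97-fold change, with all 4 GD165 controls below all 5 GD100 controls. Within slides the difference was -0.90 on slide 3 and -0.84 on slide 5, with 1 array of each group on each. With slide as a fixed block it was -0.82 and did not pass (adjusted p = 0.0365). In BPA-exposed fetuses COX7C differed in the other direction, by 0.64 ± 0.19 (adjusted p = 0.0267), which did not pass. Without GD165 BPA replicate 4, the array at 12.99, that difference was 0.97 with an adjusted p of 0.000708, which passes, and without replicate 5 it was 0.33 with an adjusted p of 0.141.

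The dimmer COX7C probe did not show this pattern. Its levels were 6.51 ± 0.17 (SD, n = 5) in GD100 controls, 6.60 ± 0.26 (n = 5) in GD100 BPA fetuses, 6.70 ± 0.12 (n = 4) in GD165 controls and 6.73 ± 0.51 (n = 3) in GD165 BPA fetuses, well above background on all 17 arrays. The groups overlapped in every comparison. Its age difference in controls was 0.19 with a 95% interval from -0.18 to 0.57, an interval that does not reach the fall on the brighter probe. When the probes of each gene were averaged, the age difference of COX7C was -0.39 with an adjusted p of 0.0219. The probes of COX7C disagree, and the COX7C calls rest on the brighter one.

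**Figure D4:**
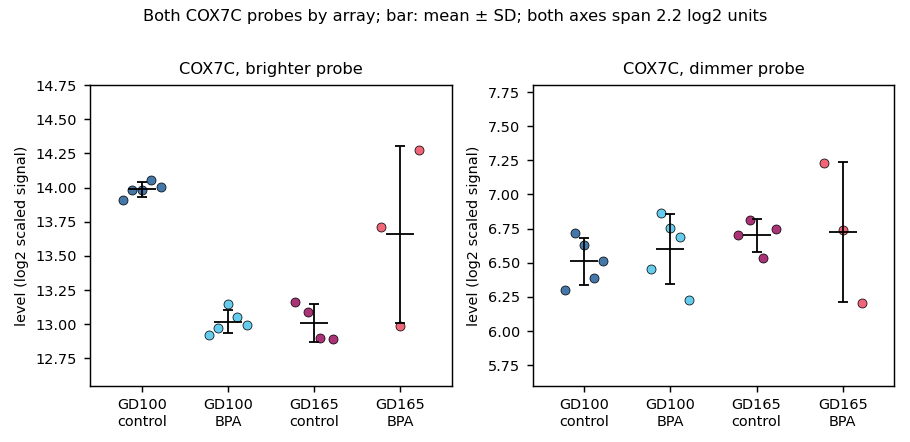
Levels of the brighter (left) and the dimmer (right) COX7C probe on each array, in log2 scaled signal, by group, with the mean ± SD as a bar. Both vertical axes span 2.2 log2 units and neither starts at 0. On the left the GD100 controls (13.91 to 14.06) lie above the GD100 BPA and GD165 control arrays, and on the right the groups overlap.

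COX7A1, the heart and muscle isoform of subunit 7a, had levels of 14.001, 14.13, 14.44, 14.08 and 13.82 in GD100 controls and 14.44, 14.46, 15.02 and 14.77 in GD165 controls. The highest GD100 control lay just under the lowest GD165 controls, and the groups did not overlap. The rise was 0.58 ± 0.14 log2 units (SE; adjusted p = 0.00865), a 1.49-fold change. It was 0.43 with slide as a fixed block (adjusted p = 0.0492), 0.02 within slide 3 and 0.62 within slide 5. In BPA-exposed fetuses the levels were 14.29, 14.29, 14.28, 14.18 and 14.06 at GD100 and 14.09, 14.04 and 14.47 at GD165, with a difference of -0.02 ± 0.15 (adjusted p = 0.944).

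COX6A2, the muscle isoform of subunit 6a, ran from 9.12 to 9.44 in GD100 controls, and GD165 controls had 9.40, 9.24, 10.71 and 9.78. The difference of 0.52 ± 0.26 did not pass (adjusted p = 0.187). Of 20 skeletal muscle genes, 19 were matched, none (0) of them stayed below background on every array, and 6 rose with age in controls (ACTA1, MYH1, MYH2, MYH8, TNNT3 and SLN). The log2 of their summed signal was 17.80 to 18.24 in GD100 controls, 17.80 to 18.23 in GD100 BPA, 18.08 to 19.05 in GD165 controls and 17.92 to 18.46 in GD165 BPA fetuses. GD165 control 5 and GD165 BPA 5 had the highest mean deviation of these genes, 3.42 and 3.05. They were also the highest arrays of their groups for COX6A2 (10.71 and 10.12) and COX7A1 (15.02 and 14.47). GD100 BPA 1 had the highest mean deviation of its group, 0.39, but was not the highest there for COX6A2 or COX7A1. GD100 control 3, the highest of its group at -0.76, was the highest there for COX7A1 but not for COX6A2. Of 8 genes of heart and slow muscle, 4 were higher and 4 lower at GD165 in controls. Their median was -0.01 and none (0) passed. Their mean deviation was also highest in GD165 control 5 and GD165 BPA 5, at 1.45 and 1.26. Each array of the compared groups was left out in turn, and GD165 control 5 was picked out here after the data were seen. Without GD165 control 5 the age difference was 0.21 for COX6A2 and 0.46 for COX7A1 (adjusted p = 0.0281), so that COX7A1 no longer passed. COX7A1 also missed the threshold without GD100 control 1, 2, 4 or 5 or GD165 control 6. All 10 smooth muscle genes were higher at GD165 in controls and 4 passed (CNN1, SMTN, LMOD1 and MYOCD), with a log2 of summed signal of 20.68 to 21.15 in GD100 and 20.98 to 21.41 in GD165 controls. Leukocyte genes had a log2 of summed signal of 14.79 to 15.31 in GD100 and 16.23 to 16.69 in GD165 controls, and 2 of 10 rose (CD74 and LYZ). Of 4 matched epithelial genes 2 rose (KRT18 and CLDN4), with a log2 of summed signal of 15.47 to 16.39 in GD100 and 16.68 to 17.10 in GD165 controls. The part of these cell types in the COX7A1 and COX7C results was not tested.

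**Figure D5:**
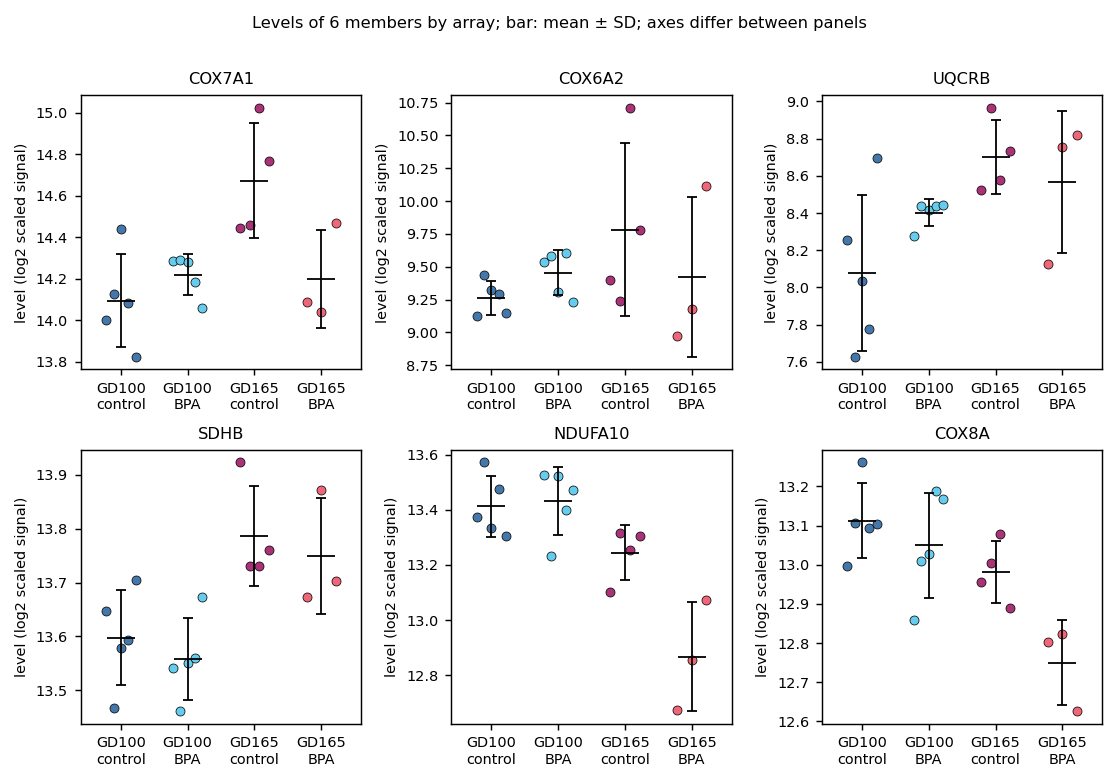
Levels of COX7A1, COX6A2, UQCRB, SDHB, NDUFA10 and COX8A on each array, in log2 scaled signal, by group, with the mean ± SD as a bar. Axes differ between panels and do not start at 0. All 4 GD165 controls lie above the 5 GD100 controls for COX7A1, and NDUFA10 is lowest in the 3 GD165 BPA fetuses.

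The other isoform genes did not pass in controls. COX4I2, the hypoxia-linked form of subunit 4, differed by -0.12 ± 0.14, COX6B2 by 0.19 ± 0.13, COX7B by 0.08 ± 0.11, COX8A by -0.13 ± 0.08 and the supercomplex factor COX7A2L by -0.01 ± 0.09. The c subunit gene ATP5G2 differed by -0.13 ± 0.13. NDUFA4, first listed with complex I and later placed in complex IV, was well above background on 3 of 4 GD165 controls and 4 of 5 GD100 controls and differed by -0.04 ± 0.22. COX7B2 was well above background on 2 of 5 GD100 and 3 of 4 GD165 controls and differed by 0.79 ± 0.58. COX8C was well above background on 4 of 5 GD100 controls, 5 of 5 GD100 BPA, 1 of 4 GD165 controls and 2 of 3 GD165 BPA arrays. Its levels were 6.61, 4.02, 5.45, 5.84 and 4.05 in GD100 controls and 1.59, 1.82, 0.9999 and 4.51 in GD165 controls, which overlapped, and 1 GD100 BPA array reached 11.45. The age difference in controls did not pass (adjusted p = 0.0868), and its fitted value ran from -4.33 to -0.58 over the alternatives, with 1 of 4 GD165 controls measured.

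Age in BPA-exposed fetuses was compared in 3 GD165 and 5 GD100 arrays that the control comparison did not use. Exposure began at GD100 in the former and at GD50 in the latter. Age and exposure window cannot be told apart wherever BPA-exposed fetuses are compared between ages. NDUFA10 fell, and it was the 1 member called, against 9.68% of all probes, 4.82% higher and 4.86% lower. An unadjusted p under 0.05 was reached by 18 members and by 34.5% of all probes, and the median difference was -0.03 over the members and -0.05 over all probes. NDUFA10, an accessory subunit of complex I, had levels of 13.53, 13.23, 13.52, 13.40 and 13.47 at GD100 and 12.68, 12.86 and 13.07 at GD165. The groups did not overlap, as for 10 members and 27.2% of all probes. The fall was -0.56 ± 0.10 log2 units (SE; adjusted p = 0.00170), a 1.48-fold change. In controls NDUFA10 differed by -0.17 ± 0.09 (adjusted p = 0.240). Its difference in BPA-exposed fetuses did not pass with slide as a fixed block (-0.49, adjusted p = 0.0219) or without GD165 BPA replicate 3 (-0.47, adjusted p = 0.0112).

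An adjusted p under 0.05 was reached in BPA-exposed fetuses by 6 members and by 21.0% of all probes. Beside NDUFA10 these were COX8A (-0.30), COX7C (0.64), ATP5H (-0.25), NDUFA3 (-0.24) and COX8C, for which 1 GD100 BPA array was at 11.45 and 2 of 3 GD165 BPA arrays were well above background. COX8A, the ubiquitous form of subunit 8, had 12.86, 13.01, 13.03, 13.19 and 13.17 at GD100 and 12.80, 12.82 and 12.63 at GD165, without overlap. The age differences of the 60 members in controls and in BPA-exposed fetuses had the same sign for 44 genes. Their Spearman rho across genes was 0.54 and their Pearson r 0.12, or 0.49 for the 59 genes without COX7C. Genes are not independent replicates and no p is given.

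BPA was compared with control at each age. At GD100 no probe passed (0 of 20217, 0.00%) and so no member did. An unadjusted p under 0.05 was found for 3 members, COX7C and NDUFS1 among them, and for 3.79% of all probes. The median difference was 0.01 over the members and 0.01 over all probes, and the 95% interval lay within a 1.5-fold change for 57 members (86.4%) and for 65.9% of all probes. COX7C, with the levels given above, was the member whose groups did not overlap, against 0.782% of all probes. Its difference was -0.97 ± 0.16 (adjusted p = 0.578 over all probes), a 1.96-fold change, and every one of the 5 BPA fetuses lay below every control. The SE of 0.16 uses a spread shared by all 4 groups. The SD was 0.05 in GD100 controls, 0.09 in GD100 BPA and 0.64 in GD165 BPA arrays. In a limma fit of the 2 GD100 groups alone COX7C was called, with an adjusted p of 0.000846, as the 1 probe of the array. Of 22 alternatives this was the 1 that called it. Within slides the difference was -0.83 on slide 1, -0.99 on slide 2 and -1.06 on slide 3. The 5 GD100 controls stand in this comparison and in the comparison of ages, so that these falls of COX7C share their control arrays. All 9 matched genes of red blood cells were higher with BPA at GD100, by a median of 0.46, and 8 of them were lower with BPA at GD165, by a median of -1.19 over the 9, with none (0) called. The log2 of their summed signal was 19.76 to 20.56 in GD100 controls, 20.56 to 20.80 in GD100 BPA, 19.54 to 21.17 in GD165 controls and 18.49 to 20.62 in GD165 BPA fetuses. Their part in the COX7C differences with BPA was not tested. On the dimmer COX7C probe the BPA difference at GD100 was 0.09 with a 95% interval from -0.26 to 0.44.

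NDUFS1 was well above background on 1 of 5 control and 0 of 5 BPA arrays.

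At GD165 no probe passed either (0 of 20217, 0.00%). An unadjusted p under 0.05 was found for 5 members (NDUFA10, COX7C, COX7A1, COX6B2 and COX8A) and for 8.61% of all probes. The median difference was -0.04 over the members and -0.02 over all probes, and the 95% interval lay within 1.5-fold for 51 members (77.3%) and for 52.4% of all probes. NDUFA10 had 13.10, 13.32, 13.25 and 13.31 in controls against the 12.68, 12.86 and 13.07 of BPA fetuses, a difference of -0.38 ± 0.11 (adjusted p = 0.407). The groups did not overlap, as for 5 members, COX8A, NDUFA8 and UQCRC1 among them, and 7.31% of all probes. COX7A1 differed by -0.47 ± 0.16 (adjusted p = 0.465) and COX7C by 0.65 ± 0.20 (adjusted p = 0.422), and in both genes the groups overlapped. The COX7C difference was 0.98 without GD165 BPA replicate 4 (adjusted p = 0.0393) and 0.34 without replicate 5 (adjusted p = 0.450).

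The difference between the BPA effects at GD165 and GD100 was tested as an interaction. The exposure windows differed as well, so age and window cannot be told apart in it. No probe passed (0 of 20217, 0.00%), and 5 members and 7.83% of all probes had an unadjusted p under 0.05. COX7C had the largest difference among the members, 1.62 ± 0.26 log2 units (adjusted p = 0.269), with a 95% interval from 1.07 to 2.16. Without GD165 BPA replicate 4 it was 1.95 with an adjusted p of 0.000253, the 1 of 28 alternatives in which it passed. Without replicate 5 it was 1.31 (adjusted p = 0.134), and with the mean of both probes 0.78 (adjusted p = 0.396). COX7A1 had -0.60 ± 0.21 (adjusted p = 0.529).

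Other genes of the pathway were read from 5 lists. Of 71 mitochondrial ribosome proteins, which make the mitochondrially encoded subunits, 51 were lower and 20 higher at GD165 in controls with a median of -0.09, and 1 passed, MRPL42 (-0.50 ± 0.09, adjusted p = 0.00142). Of 22 citric acid cycle genes and their regulators, PC, pyruvate carboxylase, fell (-0.73) and PDK2, a pyruvate dehydrogenase kinase, rose (0.38). Of 22 regulators of mitochondrial biogenesis, ESRRG, an orphan nuclear receptor of oxidative genes, fell (-1.37), MYC fell (-0.71) and NFE2L2, the antioxidant regulator NRF2, rose (0.78). PPARGC1A, the coactivator PGC-1α, differed by 0.73 (adjusted p = 0.0656), NRF1 by -0.16 and TFAM by -0.25, without passing. Of 15 electron carrier, shuttle and uncoupling genes UCP2 rose (0.78), and of 13 assembly factors none (0) passed and 10 were lower. In BPA-exposed fetuses ESRRG (-1.82) and NFE2L2 (0.69) passed again and ETFDH (1.14) passed. MRPL42, PC, PDK2, MYC and UCP2 did not pass there. Of all probes, 11.5% passed with age in controls and 9.68% in BPA-exposed fetuses. By comparison, all 15 cell cycle genes of a marker list fell with age in controls, by a median of -1.17, on the same arrays.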

How the data were processed

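Total RNA of 17 single fetal uteri was hybridized to Agilent 1-color rhesus arrays, 1 array per animal, on 6 slides. The authors scanned the arrays and made background-subtracted, detrended intensity values with Agilent Feature Extraction 9.5. The deposited intensities were not scaled between arrays, and the deposited table of the whole series held the same values. Here the 2 spots of a probe were averaged after log2, spots marked as outliers were dropped, and the 75th percentile of every array was set equal. Groups came from the labels. limma 3.58.1 in R 4.3.3 was fitted to 20217 probes and all 4 groups. Benjamini-Hochberg adjustment and a threshold of 0.01 were used as in the study's methods. The study used an error-weighted test in software not used here. With that test it reported genes that differed with BPA at both ages, more of them at GD165. Some of the GD165 genes were also measured by RT-PCR in the study. The pipeline was tested on simulated data. The members and lists were chosen with earlier results of these data known. Members given in every array were those called or with the smallest p per complex, tissue isoforms, the SDH genes, COX7C and the 3 smallest p of each BPA comparison. Values of 1 member are not reported here. Other members named were chosen after their values were seen. Nothing in the sources ties arrays to shared litters, and gene positions and promoters were not used here. Alternatives covered background correction, scaling, filter, outlier spots, prior, weights, slide, replicate number, probe choice and single arrays left out.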

Additional observations from a re-analysis of the deposited data

Results flagged for a closer look

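In 66 groups of 4 or 5 arrays (22 members named in the report), 3 groups held an array that stood apart from the others by Dixon's criterion, and chance gives about 1 in 20. ATP5H was at 15.50 in GD165 control replicate 3, and the other GD165 controls were at 15.38 to 15.39. SDHB was at 13.92 in GD165 control replicate 1, and the others were at 13.73 to 13.76. UQCRB was at 8.28 in GD100 BPA replicate 1, and the others were at 8.41 to 8.44.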

How the results depend on the processing

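The 2 members called with age in controls became 1 with median scaling or only the compared groups in the fit (COX7C), 1 with the mean of a gene's probes (COX7A1), 0 with slide as a fixed block and 1 when COX7C was left out of the members, an alternative added after the data were seen. Leaving out single arrays gave 1 to 2, with 1 without GD100 control replicate 1, 2 or 4 or GD165 control replicate 5 or 6. For age in BPA-exposed fetuses the count of 1 became 0 with only the compared groups or slide as a fixed block and 6 at an adjusted p of 0.05, and single arrays left out gave 0 to 2, with 0 without GD165 BPA replicate 3, and 2 without GD100 BPA replicate 1 (adding COX7B2) or GD165 BPA replicate 4 (adding COX7C). For BPA at GD100 the count of 0 became 1 (COX7C) with only the compared groups, and stayed at 0 to 0 with single arrays left out. For BPA at GD165 it was 0 in every alternative run. The interaction count of 0 became 0 to 1 with single arrays left out, and was 1 (COX7C) without GD165 BPA replicate 4.

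With the replicate number as a block, 0 members were called with age in controls and 0 in BPA-exposed fetuses. Over 19 pairs of same-numbered arrays the correlation of deviations ran from -0.17 to 0.16, and 3 were above 0.1. Over pairs with different numbers it ran from -0.21 to 0.23. These correlations do not settle whether the numbers pair animals.

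Differences of members that were not called changed sign with age in controls. With slide as a fixed block ATP5G2 was 0.0335, COX7A2L 0.0794 and COX7B -0.004. NDUFA4 was 0.0258 with normexp and 0.0946 with error-model weights, and SDHA was 0.0117 with quantile normalization. With single arrays left out, COX7A2L ran from -0.0659 to 0.0733, NDUFA4 from -0.2031 to 0.137 and SDHA from -0.0518 to 0.0076. The cause of these changes was not tested. The number of arrays and the signal over background of the 6 dim members limit what could be measured, and no value is given for ATP5G3, which was well above background on 0 of 5 GD100 and 0 of 4 GD165 controls.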
